A study of Mus musculus with 2 samples.

Results

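The response of Utx knockout mouse embryonic stem (ES) cells to retinoic acid (RA) was read from 1 dual-colour Agilent expression array, 1 of the 2 arrays of the study. It was chosen by its label, as the array that pairs untreated and RA-treated RNA of the knockout line. The other array pairs the same conditions in V6.5, the line labelled wild type, and stands beside the knockout here only as a reference. On each array the untreated cells of the line were labelled with Cy3 and had been kept on gelatin in medium with leukaemia inhibitory factor (LIF). The treated cells of the same line were labelled with Cy5 and had been moved for 48 h to medium without LIF and with 100 nM RA. The label of the knockout line also gives V6.5 as its developmental stage. The labels do not say how the allele was made, what sex the knockout line is or how many clones it holds. RA and the loss of LIF came together, so their effects cannot be told apart, and "after RA" stands for both.

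Utx is the product of Kdm6a on the X chromosome and removes methyl groups from lysine 27 of histone H3, the repressive mark that Polycomb repressive complex 2 (PRC2) deposits. It also belongs to complexes of the MLL family, which methylate lysine 4 of the same histone at enhancers. RA enters the nucleus on carrier proteins and binds RA receptors, which sit on DNA as dimers with RXR and switch from repressing to activating their targets. In mouse ES cells RA opens the Hox clusters, which Polycomb marks hold silent, and drives exit from pluripotency.

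Each gene has a log2 ratio, RNA of treated over RNA of untreated cells, the mean of its features on the array, where a log2 ratio of 1 is 2-fold. Positive ratios are taken to mean higher after RA, a direction that is likely from the dyes but not stated. There is 1 array and no replicate, so no value has a replicate check and no test was made. Genes are called higher or lower where they passed 2-fold, which is a size and not a test. The only error at hand is the SD between features of a gene on the array, which measures spots and probes and not the cells. It had a median of 0.13 over 4776 genes with 2 features and of 0.09 over 387 genes with 10 or more. Among genes past 2-fold it was larger for those with 2 features, at 0.27 over 133 genes, and alike for those with 10 or more, at 0.10 over 25 genes. It was largest for those with 3 to 9 features, at 0.52 over 24 genes, against 0.17 over all 975 such genes. Ratios give no level of expression, so the ES cell identity could not be checked by the presence of markers. The ratio of Kdm6a, -0.16 in the knockout and -0.39 in V6.5, compares conditions within a line and does not check the knockout.

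Most genes moved little. Of 22485 genes, 19710 lay within 1.5-fold of 0, which is 87.7%, and the SD over all genes was 0.49. After RA 656 genes were at least 2-fold higher, which is 2.92% of all, and 371 were at least 2-fold lower, which is 1.65%, or 4.57% in either direction. In V6.5 these shares were 2.52%, 1.59% and 4.11%. The upper side reached farther. At 4-fold, 146 genes were higher and 36 lower, and at 8-fold 58 were higher and 2 lower. The 2 genes lowered more than 8-fold were Ly6g6e and Glod5, and no gene was lowered 16-fold, while 25 were raised that far. Over all genes 12016 were below 0 and 10463 above it, a split that depends on where the array is centred. Among called genes with more than 1 feature, 104 of 109 higher and all 73 lower ones had features of 1 sign, and in 70 and 45 every feature was past 2-fold. Just inside the line stood the adhesion molecule Kirrel (2.0004-fold higher) and the neural Myc family member Mycn (2.0008-fold lower), and just outside it Sycp1-ps1 (1.9984-fold higher) and the repressor Hes3 (1.9999-fold lower).

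**Figure D1:**
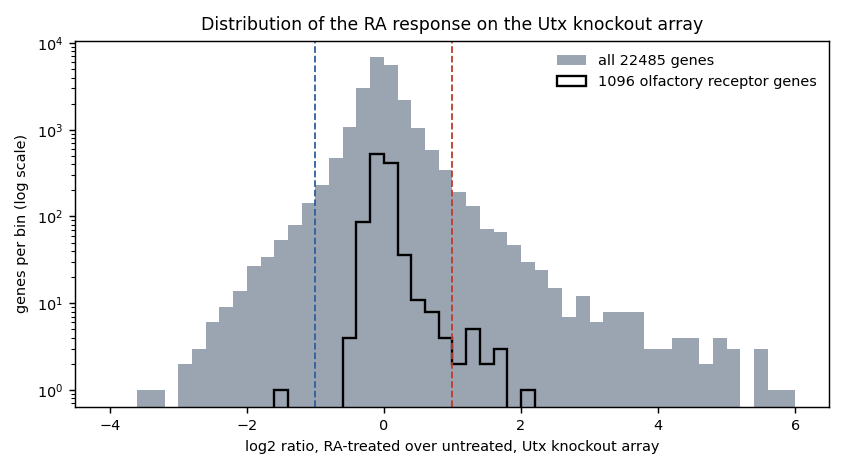
Number of genes (log axis) by log2 ratio after RA (RA-treated over untreated) on the Utx knockout array, for all 22485 genes, with lines at 2-fold. The upper tail is longer: the highest ratio is 5.86 and the lowest is -3.54.

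Families that ES cells are not known to use give a reference for the spread of ratios on this array. The 1096 measured olfactory receptor genes had a median of -0.02 and an SD between genes of 0.23. Of these, 13 were past 2-fold higher, led by Olfr1372-ps1 at 2.16, and Olfr985 was lower at -1.51, with -0.73 in V6.5. In V6.5, 10 were past 2-fold higher. Olfr1372-ps1, Olfr1383 and Olfr1384 had 2.16, 1.64 and 1.59 in the knockout and 2.20, 1.68 and 1.49 in V6.5. Olfr214 and Olfr691 had 1.71 and 1.67 against 0.86 and 0.81. Some of the highest ratios thus recurred in V6.5, so they cannot be read as spread alone, and their source was not tested. The 259 vomeronasal receptor genes had an SD of 0.22, with Vmn1r236 alone past 2-fold, at 2.33, and 1.39 in V6.5. The 74 genes of ribosomal proteins, which every cell uses, had an SD of 0.27 and a median of -0.03, and none was past 2-fold. A list of 16 reference genes also held none, from Gusb at 0.64 to the transferrin receptor Tfrc at -0.96 ± 0.11 (SD, 12 features).

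At the upper end of the array stood genes of the early embryo, genes that RA is known to induce, and genes that interferon is known to induce. Beside the Zscan4 and Pramel genes described below, Hoxb2 and the meiotic gatekeeper Stra8 were at 4.97 and 4.91. Greb1l, a gene of kidney and inner ear development, was 16.2-fold higher in the knockout and had a log2 ratio of 2.76 in V6.5. Wt1, a zinc finger factor of kidney and gonad, was 14.8-fold higher, with 2.98 in V6.5. Olig3, a factor of dorsal spinal cord and hindbrain progenitors, was 11.6-fold higher, with 2.04 in V6.5. The endocytic receptor Lrp2, which takes up retinol with its binding protein, had 3.53 in the knockout and 1.05 in V6.5. The adaptor Skap1 had 3.32 and 3.05, a pair close to each other. Skap1 lies beside the HoxB cluster in the mouse genome.

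The lower end mixed surface proteins, pluripotency factors and metabolic genes. Ly6g6e, a membrane protein of the Ly6 family, was 11.6-fold lower, and its relative Ly6g6d had -2.14. Foxd3, a transcription factor of ES cells and neural crest, was 7.54-fold lower in the knockout, against a log2 ratio of -1.45 in V6.5. Slco4a1, an organic anion transporter, was 7.37-fold lower and Ccn5, a secreted matricellular protein, 6.38-fold lower. Klf4, a pluripotency factor that LIF sustains, was 5.44-fold lower. Cpt1a, which brings fatty acids into mitochondria for oxidation, was 5.00-fold lower, and its 11 features agreed closely, at -2.32 ± 0.07 (SD), against -1.32 in V6.5. Nmnat3, an enzyme of NAD synthesis in mitochondria, had -2.32 and -0.62 in the 2 lines. Otx2, a regulator of the primed state and the anterior brain, had -2.24 and -2.08. Kallikrein genes were among the lowest, and here V6.5 went farther: Klk1b5 had -2.37 in the knockout and -3.71 in V6.5, and Egfbp2 had -2.17 and -3.69.

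**Figure D2:**
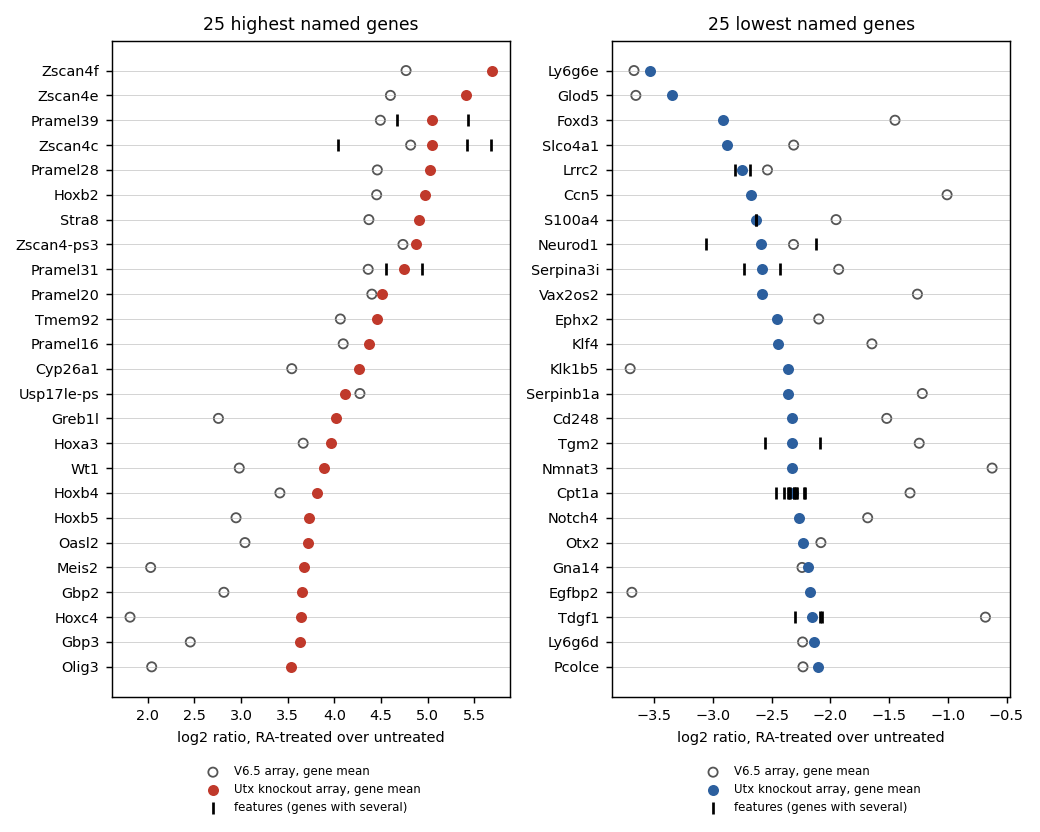
Log2 ratio after RA (RA-treated over untreated) for the 25 highest and 25 lowest genes of the Utx knockout array, placeholder names left out. Filled points are knockout gene means, ticks are single features of genes with several, and open points are the V6.5 array; Hoxc4 and Tdgf1 are among the genes with a wide gap between the lines (3.64 against 1.81 and -2.16 against -0.68).

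Some genes rest on many features that agreed. Hoxb1 had 10 features at 3.08 ± 0.13 (SD), and the classical MHC gene H2-K1 had 11 at 1.99 ± 0.12. The immediate early factor Fos had 10 features at -1.70 ± 0.08. Tlr2, a receptor of innate immunity, had 10 features at 1.23 ± 0.05, and the scavenger receptor Scara3 had 10 at 1.39 ± 0.07. Parm1 had 10 at 1.42 ± 0.07 and the growth factor Tgfb3 10 at -1.10 ± 0.07. Nckap1l, a regulator of actin in blood cells, had 10 at 1.19 ± 0.07, Ptgs2, which makes prostaglandins, 10 at -1.27 ± 0.08, and the lipase Liph 10 at -1.16 ± 0.09. In these genes the spread between features was small beside the ratio. Features of a gene may be repeated spots of 1 probe, which was not checked, so their agreement need not be that of separate probes. In others the features of a gene went apart, and their means should not be read closely. Usp17la had features of -0.09 and 3.27, Tnfrsf19 ran from -0.08 to 2.09 and Ppm1h from -0.06 to 2.24. The casein gene Csn3 had features of 0.22 and 4.75, and Myh6, a myosin of the heart, had 1.34 ± 1.86 (SD, 2 features).

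In the retinoid pathway, genes of breakdown and transport were among those past 2-fold. Of 3 measured enzymes that degrade RA, 2 were higher. Cyp26a1, the main one in embryos, was 19.3-fold higher, with log2 ratios of 4.27 in the knockout and 3.54 in V6.5, and Cyp26b1 had 2.13 and 1.98. Of 8 genes for carriers and uptake, 3 were higher, with a median of 0.78. All 8 had a larger ratio in the knockout than in V6.5, against 50.7% of all genes. Stra6, the membrane channel for retinol, had 3.25 and 2.53. Crabp2, which hands RA to its receptors, had 2.65 and 0.67. Rbp4, the retinol carrier of plasma, had 1.40 and 0.74, and Crabp1, another RA carrier, had 0.93 and -0.04. Of 17 genes for synthesis and storage, Dhrs3 was higher at 2.41, an enzyme that returns retinal to retinol. The RA-making enzyme Aldh1a3 was lower at -1.34, and its relative Aldh1a2 had 0.70. Rarb was the 1 receptor of 6 past 2-fold, with 2.40 ± 0.88 (SD, 2 features), next to 2.38 in V6.5. The receptors Rara (-0.31), Rarg (0.10) and Rxra (-0.11) stayed within 1.5-fold. So 2 of 3 degradation genes, 3 of 8 carrier and uptake genes and Rarb were higher, and the other 5 receptors were not past 2-fold. Over all genes 2.92% were higher and 1.65% lower.

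Among 38 other nuclear receptors, 2 were higher, both of the COUP-TF family, which competes with RA receptors for binding sites. Nr2f2 had 2.17 in the knockout and 0.20 in V6.5, and Nr2f1 had 1.88 ± 0.07 (SD, 2 features) and 0.99. Of 12 receptor coregulators, Ajuba was higher at 1.40. In 29 known direct targets of RA outside the Hox clusters, 10 were higher and 2 lower, with a median of 0.58, against 2.92% and 1.65% of all genes. Tshz1, a zinc finger factor of the trunk, had 2.45 in the knockout and 1.22 in V6.5, and the pioneer factor Foxa1 had 3.13 and 3.09. Zfp503, a regulator of hindbrain and striatum, had 1.43 ± 0.11 (SD, 11 features) and 0.64. Cdx1, which relays RA to the Hox genes, had 1.23 and 1.94. The lower members were the transglutaminase Tgm2 at -2.33 ± 0.33 (SD, 2 features) and the immediate early factor Egr1 at -1.07. This list is made of genes known to respond to RA, so its direction was known beforehand.

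The promoters of the higher genes were searched for the element that RA receptors and RXR bind, a direct repeat spaced by 5 bases. RefSeq promoters of assembly GRCm38.p6, each 250 bases before to 50 after a start site, were at hand for 16970 genes with 20690 promoters. The repeat units AGGTCA and AGTTCA were allowed in any pairing, on both strands. Other repeat units were not searched, so the counts cover only these forms of the element. The repeat stood in 1 of 579 promoters of genes past 2-fold higher, which is 0.173%, in 4 of all 20690, which is 0.0193%, and in 0 of 331 promoters of lower genes. A repeat spaced by 2 bases stood in 1 of the 579, that of Olfr691 (1.67), and in 5 of all. The promoter with the repeat spaced by 5 was that of Cyp26a1, and the repeat ends 15 bases before the start site. The stretch around it, chr19:37697746-37697807 on the plus strand of GRCm38.p6, is shown because it belongs to the gene with the highest ratio of the retinoid pathway; capitals mark the repeat, which reads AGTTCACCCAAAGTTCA on the opposite strand.
Cyp26a1: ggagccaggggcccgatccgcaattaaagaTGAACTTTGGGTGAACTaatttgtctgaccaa
The repeat units in it are both AGTTCA, and with AGGTCA alone allowed the count was 0 of 579. A match describes letters in a window and does not show binding.

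The Hox genes, which set position along the body axis, divided by cluster. In HoxB 9 of 10 measured genes were higher, with a median of 3.02, and in HoxA 4 of 10 with 0.79. In HoxD 3 of 9 were higher with 0.51 and in HoxC 3 of 9 with 0.13, and none of the 38 was lower. Over all genes 2.92% were higher and 1.65% lower. In HoxB the ratios ran from 4.97 for Hoxb2 to 1.63 for Hoxb9, and Hoxb13, at the far end of the cluster, had -0.26. In HoxA, Hoxa3 had 3.96, Hoxa5 3.39, Hoxa2 2.72 and Hoxa7 1.69. Their neighbours Hoxa4 (0.96) and Hoxa6 (-0.08) stayed within 2-fold, so the higher genes of HoxA were not 1 unbroken block. In HoxC, Hoxc4 had 3.64, Hoxc9 2.65 and Hoxc5 1.83, with Hoxc6 (0.13) and Hoxc8 (0.40) between them. In HoxD, Hoxd4 had 1.71, Hoxd1 1.27 and Hoxd8 1.16. Each of the 4 clusters thus had its higher genes among paralogs 1 to 9, and no gene of paralogs 10 to 13 was past 2-fold, from Hoxa10 at 0.61 to Hoxc13 at -0.95.

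The V6.5 array had 16 of the 38 past 2-fold higher, against 2.52% of all genes. Hoxc4 had 3.64 in the knockout and 1.81 in V6.5, Hoxb8 3.26 and 1.65, Hoxa2 2.72 and 1.12, and Hoxc9 2.65 and 1.13. Hoxb1 was level between the lines, at 3.08 and 3.10, each over 10 features. In 24 of the 38 genes the knockout ratio was above that of V6.5, against 50.7% of all genes. No difference between the lines was tested, since each has 1 array.

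**Figure D3:**
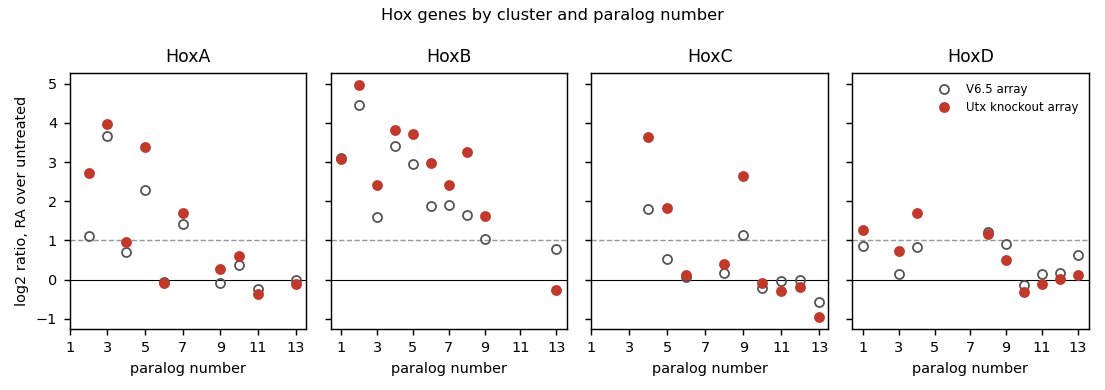
Log2 ratio after RA (RA-treated over untreated) for the 38 measured Hox genes, by cluster and paralog number, on the Utx knockout array (filled) and the V6.5 array (open). HoxB paralogs 1 to 9 all lie past 2-fold on the knockout array, and paralogs 10 to 13 of every cluster do not.

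Of 10 TALE homeobox genes, whose products bind DNA together with Hox proteins, 3 were higher, against 2.92% of all genes. Meis2 had 3.68 in the knockout and 2.03 in V6.5, Meis1 3.51 and 2.22, and Pknox2 2.15 and 1.36. Pbx2 (0.84) and Pbx3 (0.83) stayed within 2-fold. In the list of 27 genes of hindbrain and spinal cord patterning, 7 were higher and 2 lower, against 2.92% and 1.65% of all genes. Irx3, a factor that divides the neural tube, had 2.85 and 1.66, and its neighbour Irx5 had 1.14 and 0.47. The lower ones were Olig2, which marks motor neuron progenitors, at -1.79, and the rhombomere factor Egr2 at -1.10. In forebrain and midbrain patterning 1 of 21 was higher, or 4.76%, the eye and pituitary factor Six6 at 1.05. In the same list 3 were lower, or 14.3%: Otx2, Rax (-1.86) and Hesx1 (-1.64), factors of the anterior neural plate.

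Genes of the 2-cell embryo formed the upper extreme. All 5 measured Zscan4 genes, which mark a transient 2-cell-like state of ES cells, were higher, with a median of 5.05, among them Zscan4f (5.69), Zscan4e (5.41) and the pseudogene Zscan4-ps1 (2.89). Zscan4c had 3 features, at 5.05 ± 0.88 (SD). Of 33 Pramel genes, 11 were higher, with Pramel39 and Pramel28 above 5 and the family median at 0.39, so that the family divided into a few very high members and many near 0, such as Pramel7 at -0.04. Both Tcstv genes (2.25 and 1.71), 3 of 6 Usp17l genes and 2 of 8 Obox genes were higher. Other members of the list were Tmem92 at 4.46, the arginase Arg2 at 1.90, the lectin Lgals4 at 1.58 ± 0.22 (SD, 3 features) and Sp110 at 1.08. In all, 15 of the 29 listed genes were higher and 0 lower, with a median of 1.08, against 2.92% and 1.65% of all genes. Of the 29, 6 were below 0, the lowest being Zfp352 at -0.98, with -0.29 in V6.5.

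In this list the ratios of V6.5 were mostly the larger. In V6.5, 21 of the 29 were past 2-fold and the list median was 1.99, and the knockout ratio was the larger in 10 of 29. The 2 lines differed by member. Zscan4f had 5.69 in the knockout against 4.77 in V6.5, whereas Lgals4 had 1.58 against 2.99, Arg2 1.90 against 2.94 and Tcstv3 1.71 against 2.88. All 6 Usp17l and all 7 Tdpoz genes had the smaller ratio in the knockout. The state is known to occupy a small share of ES cells, and in bulk RNA fewer cells of a type and less RNA per cell cannot be told apart. Members of these families are nearly identical in sequence and a probe may bind several, so no single member's value is certain and members are not independent of each other.

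Higher genes often lay next to each other. Of 653 genes past 2-fold higher with a place in the gene order of GRCm38.p6, 125 had a direct neighbour among the measured genes that was also higher, which is 19.14%, against 5.66% of all 21959 placed genes. For lower genes it was 36 of 361, which is 9.97%, against 3.22%. There were 11 runs of 3 or more higher genes, holding 55 genes. The longest had 10, Hoxb9 to Hoxb1 with the antisense gene Hoxb5os (2.17). Other runs were the 5 Zscan4 genes, 7 genes around Tcstv1 and AF067061 (4.47), 7 genes around Duxbl1 (1.32) and Duxbl2 (1.78), 6 genes from H2-Q2 to H2-Q10, and Gbp3, Gbp2b and Gbp2. A run of 3 without such copies was Cpeb1 (1.73), Ap3b2 (2.69) and BC048679 (3.62). Most of these runs are repeated genes with near-identical members. The 2 runs of lower genes were Sh3gl2, Adamtsl1 and Saxo1, and Hspb8, Srrm4os and Srrm4. The strand of Hoxb5os and Srrm4os was not used here beyond the annotation, and how far their probes see the partner gene was not tested.

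The promoters of these groups are described by their CpG content, the observed over the expected number of CpG pairs. The median was 0.48 over promoters of higher genes, 0.52 for lower ones and 0.59 for all. Among 14 promoters of higher Zscan4, Pramel, Usp17l, Tcstv and Obox genes the median was 0.10, with the highest at 0.242, and that of the 913 promoters of olfactory receptor genes was 0.11. For 11 promoters of higher Hox genes it was 0.59, for 9 of higher MHC genes 0.56 and for 14 of higher germ cell genes 0.79. The 250 bases before the start site are shown for 1 gene each of the Hox, germ cell and 2-cell groups. The CpG content of these 3 genes, not of the groups, is set side by side. Capitals mark each CG pair. They lie in GRCm38.p6 at chr11:96318017-96318266 for Hoxb4, chr6:34920698-34920947 for Stra8 and chr7:11397665-11397914 for Zscan4f, all on the plus strand.
Hoxb4: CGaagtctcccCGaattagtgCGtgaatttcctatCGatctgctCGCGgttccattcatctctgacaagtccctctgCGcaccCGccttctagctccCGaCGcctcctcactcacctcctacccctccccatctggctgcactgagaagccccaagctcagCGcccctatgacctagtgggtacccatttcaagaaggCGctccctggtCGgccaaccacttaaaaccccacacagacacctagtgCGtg
Stra8: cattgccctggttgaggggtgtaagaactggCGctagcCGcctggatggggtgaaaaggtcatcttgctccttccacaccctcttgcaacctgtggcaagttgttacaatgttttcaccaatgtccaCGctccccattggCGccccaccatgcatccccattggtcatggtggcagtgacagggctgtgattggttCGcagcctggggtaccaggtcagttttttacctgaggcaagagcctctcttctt
Zscan4f: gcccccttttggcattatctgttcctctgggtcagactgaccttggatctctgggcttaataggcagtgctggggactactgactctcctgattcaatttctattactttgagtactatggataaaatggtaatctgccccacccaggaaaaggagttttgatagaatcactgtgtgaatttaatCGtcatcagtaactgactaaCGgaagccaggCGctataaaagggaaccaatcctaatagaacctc
The stretch of Hoxb4 holds 14 CpG pairs, that of Stra8 5 and that of Zscan4f 3. The log2 ratios of the 3 genes were 3.81, 4.91 and 5.69, and a relation of ratio to CpG content was not tested. The observed over expected CpG of the whole promoters was 0.593, 0.43 and 0.186. That of Hoxb4 was near the median of all promoters, and those of Stra8 and Zscan4f were below it. Stra8 was also below the median of 0.79 of the higher germ cell genes, of which 10 of 14 promoters had at least 0.6, so it does not stand for them.

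Of 61 measured genes of germ cells and meiosis, 13 were higher and 0 lower, against 2.92% and 1.65% of all genes. The list median was 0.30, with 45 genes above 0 and 16 below, and 48 had the larger ratio in the knockout, against 50.7% of all genes. In V6.5, 5 were past 2-fold. Stra8, which starts the meiotic programme in answer to RA, had 4.91 in the knockout and 4.37 in V6.5. Mael, a factor of the piRNA pathway that silences transposons, had 2.02 and 0.59. Dazl, which binds RNA in germ cells, had 1.62 and 0.71, and the germ cell helicase Ddx4 1.24 and 0.64. Rec8, the meiotic cohesin, had 1.73 and 1.95. The spermatogonial factors Sohlh1 and Sohlh2 had 1.77 and 1.32, and Slc25a31, an ADP/ATP carrier of the testis, had 1.58. Prdm14, which primordial germ cells and naive ES cells share, had -0.98, against -0.15 in V6.5. Of 10 measured Rhox genes, homeobox genes of the reproductive tract, Rhox13 (2.42) and Rhox10 (2.23) were higher.

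MHC class I molecules present peptides on the cell surface. Of 27 measured genes of the pathway, 15 were higher and 0 lower, against 2.92% and 1.65% of all genes, and 5 lay below 0. The list median was 1.09, and in V6.5 13 were higher and the median was 0.70. The immunoproteasome subunit Psmb8 had 3.53 in the knockout and 2.85 in V6.5, and its partner Psmb9 had 1.62 and 1.37. Tap2, which pumps peptides into the endoplasmic reticulum, had 2.12 and 1.23. The class I heavy chains H2-Q8 (2.44), H2-Q7 (2.05), H2-K1 (1.99) and H2-D1 (1.44) were higher, and the shared light chain B2m was not, at -0.10. The H2-Q genes are close copies, so their separate values are uncertain.

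In the interferon response, 6 of 39 genes were higher and Oas2 was lower at -1.24, against 2.92% and 1.65% of all genes. The list median was 0.23, and in V6.5 6 were higher and 2 lower. Oasl2 was 13.1-fold higher, and the guanylate binding proteins Gbp2 and Gbp3 were 12.6-fold and 12.4-fold higher. The related GTPases Irgm1 and Igtp had 2.47 ± 0.10 (SD, 2 features) and 1.59 ± 0.10 (SD, 10 features). For Igtp the V6.5 ratio was 0.23. The regulator Irf2 had 1.05, and Irf1, which drives class I genes, had 0.85 ± 1.22 (SD, 2 features), a spread too wide to read. A family of 60 interferon-induced genes, which overlaps this list, had 9 higher and 4 lower. Gbp2b was higher at 2.57 ± 0.17 (SD, 2 features), and Ifi204 (-1.99) and Ifi202b (-1.61) were lower.

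Of 37 genes of the naive state, 0 were higher and 8 lower, with a median of -0.36, against 2.92% and 1.65% of all genes. In V6.5, 1 was higher and 3 lower, and the median was lower than in the knockout, at -0.52. The ratio was the larger in the knockout for 14 of the 37. Pou5f1 (Oct4) had -1.58 in the knockout and -0.94 in V6.5. Klf4 had -2.44 and -1.65. The Nodal co-receptor Tdgf1 had -2.16 ± 0.13 (SD, 3 features) and -0.68, and the growth factor Fgf4 had -2.07 and -0.64. Tcl1, a cofactor of Akt, had -1.43, Tcea3 -1.06 and Tbx3 -1.04. Nanog (-0.16), Sox2 (-0.31), Esrrb (-0.28) and Zfp42 (-0.22) stayed within 1.5-fold in the knockout. Sox2 and Esrrb were farther from 0 in V6.5, at -0.52 and -0.61. So at 48 h Oct4 RNA was lower while the partner factors Sox2 and Nanog were not past the line.

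Of 28 LIF and STAT3 genes, 9 were lower and 0 higher, with a median of -0.39, against 1.65% and 2.92% of all genes. The list holds known targets and also parts of the pathway itself, such as Il6st and Stat3. LIF was withdrawn from the treated cells, so a lower direction of this list could be foreseen. In V6.5, 4 were lower. The receptors Osmr and Lifr had -1.75 and -1.29 ± 0.55 (SD, 3 features). The feedback inhibitor Socs3 had -1.45, and Bcl3, a cofactor of NF-kappaB, had -1.41 against -0.51 in V6.5. Fos had -1.70 against -0.26, over 10 features on each array, and Junb, its partner in AP-1, had -1.09 against -0.57. Of 29 genes of the formative and primed states, 4 were higher: Sall2 (2.36), Sox3 (2.12), Sox4 (1.95 ± 0.82, SD, 3 features) and Fgf5 (1.54). Otx2 and Foxd3, of the same list, were lower.

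**Figure D4:**
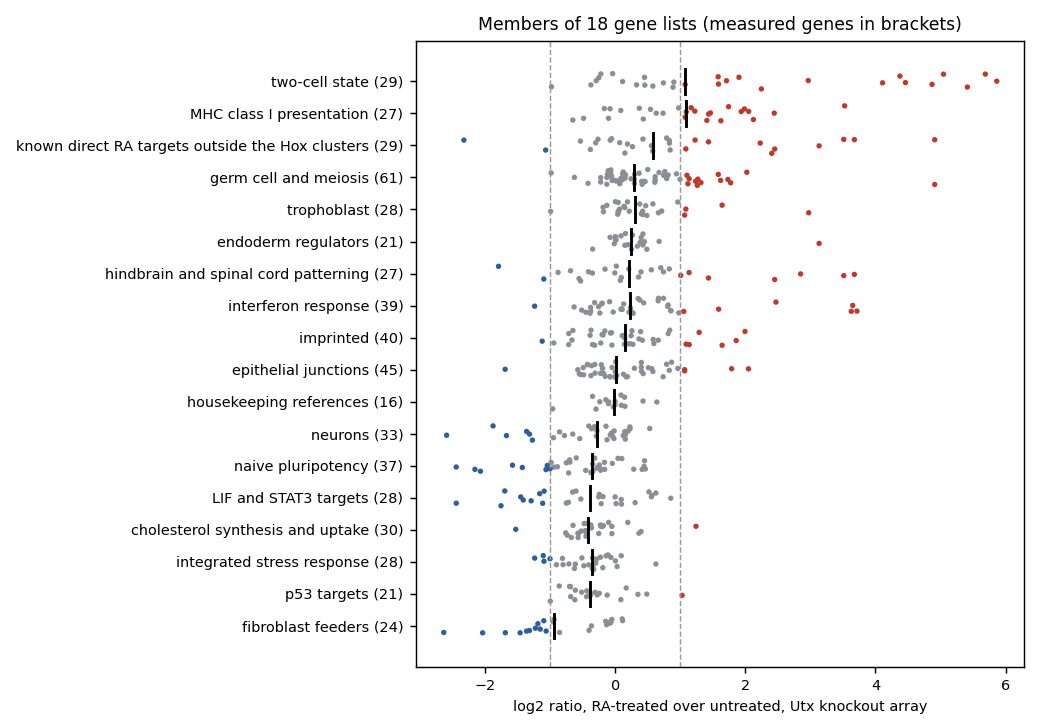
Log2 ratios on the Utx knockout array of the members of 18 gene lists, with the list median as a black bar and lines at 2-fold; red is higher, blue lower and grey within 2-fold. The lists of the 2-cell state and MHC class I have medians at 1.08 and 1.09, and the list of fibroblast feeder genes lies lowest, at -0.95.

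Fibroblasts serve as feeders for ES cells. Of 24 measured fibroblast genes, 11 were lower and 0 higher, against 1.65% and 2.92% of all genes. Ratios ran from -2.63 to 0.11 with a median of -0.95, and in V6.5 8 were lower with a median of -0.51. S100a4 had -2.63 ± 0.0049 and the collagen crosslinker Lox -2.04 ± 0.13 (SD, 2 features each). The collagen chains Col1a2, Col1a1 and Col3a1 had -1.69, -1.36 and -1.32, and the surface marker Thy1 -1.46 against -0.80 in V6.5. Per the labels the cells were grown on gelatin, and with ratios alone the level of these genes in the untreated cells is unknown. The part of such cells in the other lower genes was not tested. Of 36 matrix genes, a list that also holds Lox, 6 were lower, with Fbln2 at -1.56 and the thrombospondins Thbs1 and Thbs2 at -1.42 and -1.09, and the basement membrane collagen Col18a1 was higher at 1.25. In the collagen family 7 of 43 were lower and 5 higher, the higher ones being Col2a1 of cartilage (1.83), Col26a1, Col18a1, Col9a2 and Col22a1. Vim, the intermediate filament of mesenchyme, had -1.98 in the knockout and -1.52 in V6.5, and Fn1, fibronectin, -1.06 and -1.17.

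Of 45 epithelial junction genes, 4 were higher and 1 lower in the knockout, against 2.92% and 1.65% of all genes, with a median of 0.01. In V6.5, 1 was higher and 7 were lower, against 2.52% and 1.59%, with a median of -0.30. The ratio was the larger in the knockout for 36 of the 45, against 50.7% of all genes, and the difference between the lines was not tested. Desmoplakin (Dsp), which anchors keratin to desmosomes, had 1.79 ± 0.57 (SD, 11 features) in the knockout, with features from 0.08 to 2.03, and -0.20 in V6.5. The desmosomal cadherin Dsc2 had 2.05 and 1.51. The tight junction protein Cldn3 had 1.07 and -0.01, and the keratins Krt19 and Krt18 had 1.07 and 0.96 against 0.25 and 0.37. Rab25, Crb3 and Grhl3, genes of epithelial polarity and identity, had 0.00, -0.37 and -0.19 in the knockout and -1.25, -1.44 and -1.38 in V6.5. The gap junction protein Gja1 had 0.87 ± 0.06 (SD, 10 features) and -0.52. Cldn5 was lower in both, at -1.69 and -1.68. The median of 0.01 is near 0, and subtracting the array median of -0.03 leaves it there.

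Signalling pathways had members on both sides. In the Wnt list 7 of 49 were higher and 7 lower, against 2.92% and 1.65% of all genes. The ligands Wnt5b (1.99) and Wnt9a (1.35), the inhibitor Sfrp5 (2.42) and the receptors Fzd2 (1.15 ± 0.31, SD, 2 features) and Fzd6 (1.14) were higher. The ligand Wnt5a (-1.80), the inhibitors Sfrp4 (-1.91) and Sfrp1 (-1.19), the receptor Fzd5 (-1.38) and the cell cycle target Ccnd1 (-1.69) were lower. Sp5, a direct target of beta-catenin, had -1.46 in the knockout and 0.38 in V6.5. In the BMP list 5 of 31 were higher, among them the inhibitor of differentiation Id2 (1.90), the phosphatase Dusp9 (1.23), Msx2 (1.12) and the ligand Bmp6 (1.07), and Id4 (-1.48) and the antagonist Grem1 (-1.14) were lower.

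FGF and ERK genes were lower more than higher, with 7 and 4 of 41, against 1.65% and 2.92% of all genes. Beside Fgf4 the ligands Fgf17 (-1.76) and Fgf10 (-1.08 ± 0.32, SD, 10 features) were lower, as were the immediate early genes Fos, Fosb (-1.68), Egr1 and Egr2. Fosb had -0.22 in V6.5, and Fgf17 -1.38. Fgfbp1, which releases FGF from the matrix, had 1.94 against 0.51 in V6.5, and the ligand Fgf9 had 1.01. Phlda1, an ERK target, had 1.43 against -0.04. In the Nodal list Lefty1, an inhibitor of Nodal, was higher at 2.23, near its 2.29 in V6.5, and Tdgf1 was lower. In the Notch list 0 of 25 were higher and 3 lower, the receptor Notch4 (-2.27), the ligand Jag1 (-1.54) and Dtx1 (-1.56). In the Hedgehog list the targets Gli1 (-1.11) and Gli2 (-1.06) were lower and the co-receptor Boc (1.13) higher. In the Hippo list Ajuba, which binds the Lats kinases, and Amot (1.17) and Amotl2 (1.01), which bind the coactivator Yap, were higher, and Ccn5 and Axl (-1.39) lower.

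At 48 h 95.4% of all genes were within 2-fold, with 2.92% higher and 1.65% lower. Some lists of later cell types were past it more often: 18.2% of neuronal and 13% of neural progenitor genes were lower. Of neural crest and placode genes 22.7% were higher and 9.09% lower. Of 33 neuronal genes 0 were higher and 6 lower, with a median of -0.28: Neurod1 (-2.59 ± 0.67, SD, 2 features), the neurofilament Nefl (-1.88), the GABA-making enzyme Gad1 (-1.67), Stmn3 (-1.36), the RNA-binding protein Elavl3 (-1.32) and Stmn2 (-1.27). All 6 also had negative ratios in V6.5. Of 23 genes of neural progenitors, Sox3 was higher and Vim, Olig2 and Olig1 (-1.32) were lower. Neural crest and placode genes had 5 of 22 higher, led by Gata3 (2.97 against 2.15 in V6.5) and Eya2 (2.45), with Sox10 (1.13), Msx2 and Ets1 (1.07), and Foxd3 and Mitf (-1.60) lower.

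In primitive streak and mesoderm, 1 of 26 was higher, the somite factor Meox1, with 2.36 in the knockout and 0.20 in V6.5, and Sp5 and Fgf4 were lower. In heart and vessel, Tbx1, a factor of pharyngeal mesoderm, was higher at 1.83 against 0.60, together with Myh6, and the blood factor Tal1 was lower at -1.30. The skeletal actin Acta1 had 1.79 against 0.53. Of 21 endoderm regulators only Foxa1 was past 2-fold, while Foxa2 (0.45), Sox17 (0.15), Gata4 (0.25) and Gata6 (0.27) were not. Visceral endoderm products had 2 of 33 higher, Lrp2 and Rbp4, and 3 lower. Of 28 trophoblast genes 4 were higher, against 2.92% of all genes: Gata3, Peg10 (1.64 ± 0.42, SD, 2 features), Tfap2c (1.09) and Krt19. Cdx2, the factor that founds the trophoblast, had 0.43.

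Few of the listed chromatin genes were past 2-fold, and the same held for all genes, with 2.92% higher and 1.65% lower. Of 18 genes of PRC2 and the H3K27 demethylases, 1 was higher, Ezhip (1.94), an inhibitor of PRC2. The catalytic subunits Ezh2 and Ezh1 had 0.01 and -0.36, and the core subunits Suz12 and Eed -0.10 and -0.44. The remaining H3K27 demethylase Kdm6b had -0.13. Phf19, which brings PRC2 to its sites, had 0.81 in the knockout and -0.97 in V6.5. In PRC1, Bmi1 (1.17 ± 0.05, SD, 2 features) and Yaf2 (1.02 ± 0.02, SD, 2 features) were higher, 2 of 21. None of 15 MLL complex genes and none of 23 other histone demethylases was past 2-fold. In nucleosome remodelling the architectural protein Hmga2 was the 1 of 34 that was higher, at 1.86 ± 0.49 (SD, 2 features) against 0.61 in V6.5. In the list of DNA methylation and repeat silencing, the methylcytosine oxidase Tet1 (-1.16) and Morc1 (-1.37) were lower and the repair factor Gadd45a (1.03) higher, of 24.

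Imprinted genes, expressed from 1 parental allele, had 6 of 40 higher and 1 lower, against 2.92% and 1.65% of all genes. Mest, expressed from the paternal allele, was 3.99-fold higher over 12 features, whose log2 ratios ran from 1.63 to 2.15, and had a log2 ratio of 0.22 in V6.5. The others were Sgce (1.29 against 0.22), the neuronal Nnat (1.14 ± 0.05, SD, 2 features, against 0.13), Peg10 (1.64 against 0.81), the cell cycle inhibitor Cdkn1c (1.09 against 0.70) and Magel2 (1.86 against 2.37). The long noncoding RNA Meg3 was lower, at -1.12 ± 0.81 (SD, 3 features). Of 9 genes of X inactivation none was past 2-fold, with Xist at 0.01, and of 10 measured Y-linked genes none, the farthest being Eif2s3y at -0.83.

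Among growth and metabolism genes, cyclin D2 (Ccnd2, 1.97) and Cdkn1c were higher and cyclin D1 (Ccnd1) lower, of 50 cell cycle genes with a median of 0.00. That is 4% and 2% of the list, near the 2.92% and 1.65% of all genes. Of 21 p53 targets Gadd45a alone was past 2-fold, and the list median was -0.38, with the inhibitor Cdkn1a at -0.86 ± 0.14 (SD, 11 features). Of 28 genes of the integrated stress response, 4 were lower, Stc2 (-1.24), Ddit3 (-1.10), Chac1 (-1.09) and Trib3, just past the line, and 4 were above 0; in V6.5 none was past 2-fold. Of 30 genes of cholesterol synthesis and uptake, 26 were below 0, with a median of -0.42, yet only the exporter Abca1 (-1.53) was past the line, and the lipase Lpl was higher (1.24 ± 0.72, SD, 2 features). Of 37 genes of glycolysis and hypoxia, the glucose transporter Slc2a1 was higher (1.27) and Ndrg1 (-1.97) and the lactate dehydrogenase Ldhb (-1.45) lower. The shares higher and lower were 2.7% and 5.41% for this list and 3.33% each way for the cholesterol list. For p53 targets they were 4.76% and 0%. In metal handling, the iron exporter Slc40a1 (2.16), metallothionein Mt1 (1.14) and the ferrireductase Steap3 (1.12) were higher, or 15% of 20 genes.

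Of 368 solute carriers 11 were higher and 5 lower, shares near the 2.92% and 1.65% of all genes, and of 367 Zfp genes 7 and 2, led by Zfp703 at 2.98. Of 99 cytochrome P450 genes 5 were higher, and beside the Cyp26 genes the largest was Cyp1b1, at 2.34 against 0.64 in V6.5. Of 47 protocadherins and 9 Pax genes, none was past 2-fold. In the histone family, 4 of 76 were higher and the median was 0.03, whereas in V6.5 10 were higher and the median was 0.39, and the ratio was the larger in the knockout for 18 genes. Of 27 kallikreins 5 were lower in the knockout and 9 in V6.5, and of 20 S100 genes 2 were lower and S100g (1.77) higher.

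Many of the called genes were called in both lines. Of the 656 genes higher in the knockout, 381 were also at least 2-fold higher in V6.5, which is 58.1% of the knockout's genes and 67.3% of V6.5's. Of the 371 lower genes 214 were lower in both, 57.7% and 59.8%. No gene passed 2-fold in opposite directions. A gene past a line on 1 array tends to be nearer 0 on another, so sizes are given from both sides. Among the 656 genes chosen on the knockout array, 504 had the larger ratio there and the V6.5 median was 1.13. Among the 566 genes chosen on the V6.5 array, 229 had the larger ratio in the knockout, and the knockout median was 1.31. For lower genes the counts were 274 of 371 and 117 of 358.

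Of the 656 higher and 371 lower genes of the knockout, 100 and 37 did not reach 1.5-fold in the same direction in V6.5. These counts include genes with the other sign in V6.5. The reverse count, from genes called in V6.5, was not made, so they do not show genes particular to the knockout. Of the genes short of 1.5-fold in V6.5, Mest, Igtp, Nckap1l, Fos and Nr2f2 have been described. Zbtb16, a zinc finger repressor of stem and germ cells, had 2.24 in the knockout and -0.05 in V6.5. Ctxn3 had -1.65 ± 0.28 (SD, 10 features) against -0.30, Fbxo32, a ubiquitin ligase of muscle wasting, 1.05 ± 0.10 (SD, 10 features) against -0.07, and the adhesion molecule Vcam1 -1.15 ± 0.05 (SD, 2 features) against -0.33. The prolactin family gene Prl4a1 had 1.52 against -0.89. The spread between features was smaller than these gaps in Fbxo32, Ctxn3 and Vcam1, but it leaves out the spread between cultures, which 1 array per line cannot show.

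**Figure D5:**
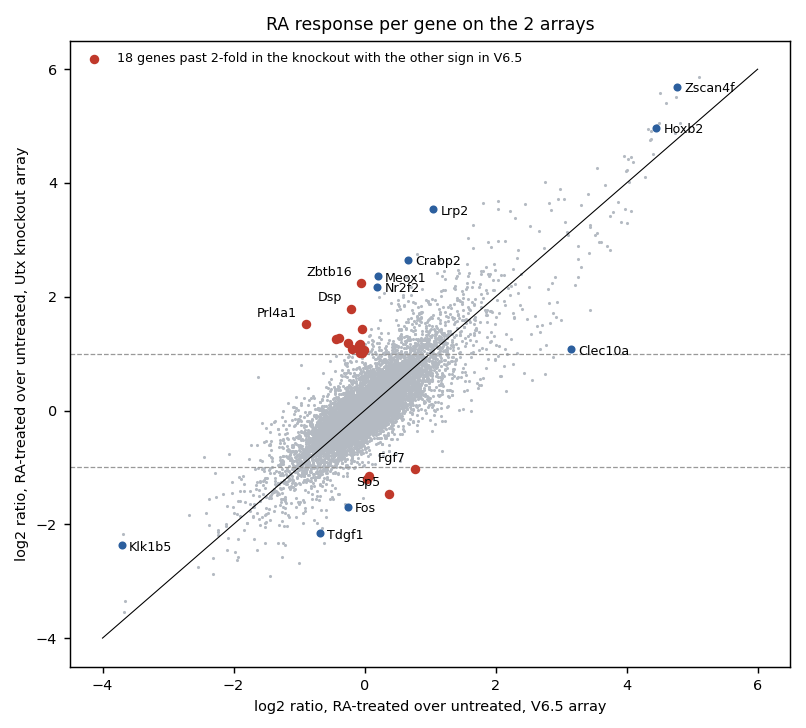
Log2 ratio after RA (RA-treated over untreated) on the Utx knockout array against the V6.5 array for all 22485 genes, with named genes marked and lines at 2-fold. No gene lies past 2-fold in opposite corners, and 595 lie past it the same way on both.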

How the data were processed

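Total RNA of each line was labelled from 200 ng with an oligo-dT primer and T7 polymerase and hybridised with Cy3 and Cy5 on 1 array, per the labels' protocols. The authors deposited 1 log2 ratio per feature, for 44397 features. The submitters' processing notes name limma, with no version and no step; background correction and normalization: not given in the sources used here. The log base and direction were inferred; the mean of each column is 0, so the values were centred by the authors. There was no dye swap, so a dye bias at a gene cannot be told apart from its response, and no intensities were used, so signal over background is unknown.

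Features with a symbol in the platform annotation (33026) were averaged per gene; 16347 of 22485 genes had 1 feature. Of these genes 21962 matched RefSeq (GRCm38.p6), used for names, gene order and promoters. No test was made. Members, 55 gene lists and 60 families were chosen with earlier results of these data known. The text names the 25 genes at each end without placeholder symbols, list members past 2-fold and core members, family extremes, genes with closely agreeing or disagreeing features, genes far from V6.5, genes at the 2-fold line and runs of neighbours, and Csn3, Skap1, Gja1, Rab25, Crb3, Grhl3, Phf19 and Prdm14 were named after their values were seen. MHC genes were removed from the histone family, and 3 mistaken synonyms from the lists, after a look at the data. Counts were tested on simulated data. Python 3.11.15, numpy 2.4.6, pandas 2.3.3 and matplotlib 3.10.9 were used.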

Additional observations from a re-analysis of the deposited data

Results flagged for a closer look

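Features without a gene name entered no gene count. Of these 11371 features, 514 were past 2-fold on the knockout array, 295 higher and 219 lower, which is 4.52%, with ratios from -3.35 to 5.83.

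In 18 genes past 2-fold in the knockout the V6.5 ratio had the other sign. The difference was not tested, as each line has 1 array. Several V6.5 ratios were near 0, so their sign is not settled, as in Cldn3 (-0.01), Arl14epl (-0.03), Phlda1 (-0.04), Aqp1 (0.04) and Zbtb16 (-0.05). The farthest from 0 were those of Prl4a1 (-0.89) and Fgf7 (0.77). The knockout minus V6.5 difference in log2 ratio was 2.41 for the prolactin family gene Prl4a1, 2.29 for Zbtb16, 1.99 for Dsp, 1.68 for Fam181b, 1.67 for Col26a1, 1.47 for Phlda1 and 1.43 for Zfhx3. It was 1.27 for Btbd17, 1.25 for Igfbp5, which binds insulin-like growth factors, 1.24 for Cdc42ep1, 1.13 for Fbxo32, 1.08 for both Cldn3 and Btbd11 and 1.05 for Arl14epl. It was -1.84 for Sp5, -1.79 for the growth factor Fgf7, -1.25 for the water channel Aqp1 and -1.22 for the chemokine Cxcl12.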

How the results depend on the processing

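The 656 higher and 371 lower genes became 1637 and 1138 at 1.5-fold, 268 and 100 at 3-fold, and 109 and 73 when only genes with 2 or more features were kept. The 595 genes past 2-fold the same way in both lines became 1770, 191 and 97. With feature medians, the array median subtracted or placeholder symbols left out, and with V6.5 scaled to the quantiles of the knockout array for the shared count, these counts stayed within 1.5 times. Feature medians and the subtracted array median were run for each list median and for the 25 highest and 25 lowest genes, and among these no value past 2-fold changed sign; other named genes were not run. The median of the 2-cell list was 0.90 with feature medians. S100a4 had -2.60 with the array median subtracted, a shift larger than its very small SD between 2 features. No paired analysis was possible because each line has 1 array and the labels carry no replicate numbers. Leaving out a replicate was likewise not possible. The number of arrays limits the precision, and most genes rest on 1 feature.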
